A study of Mus musculus with 9 samples.

Results

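Across 4 stretches of chromosomes 4, 5 and 12, promoter windows of cells carrying Snai1 differed together from those of cells carrying an empty vector. They were 209 of the 10271 promoter windows of the authors' deposited table: 62 in the first part of chromosome 4 (called proximal here), 20 further along chromosome 4 (called middle), 23 on chromosome 5 and 104 at the far end of chromosome 12. The members were chosen by position, as windows that start inside these stretches, and the stretches themselves had been picked from the same table because neighbouring windows changed alike. The direction and size of the shift of each stretch are therefore a description of these data, not a test. In mm10, the windows ran from base 3573879 to 35226880 and from 58912625 to 62526369 of chromosome 4, from 115630987 to 120614130 of chromosome 5, and from 91589549 to 118302440 of chromosome 12. The other 1448 windows of these 3 chromosomes served as the comparison.

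The assay was ATAC-seq, where a Tn5 enzyme inserts sequencing adapters into open DNA, and the cells were HPC7, an established mouse blood progenitor line kept in stem cell factor (SCF). There were 9 libraries: 3 from cells given the empty MIG retroviral vector (EV), 3 from cells given MIG with wildtype Snai1 (FLAG-tagged, per the series' design text) and 3 from cells given the mutant mut5Snai1, which was not analysed here. All groups share the parental line and a retroviral transduction, and nothing in the labels ties the replicates to independent transductions, so the authors' p-values reflect a spread among replicates that may be only technical. The table gives 1 value per group and none per library, so whether a shift was present in 1 or in all 3 libraries of a group cannot be told apart. The sources used here give no read totals. Of 10 blood progenitor genes, 9 had a window, with a log2 concentration in EV from 9.22 to 12.22; Erg had none. Of markers of other cell types, 2 of 6 fibroblast genes (Fap and Pdgfrb, 9.15 to 10.14), 0 of 4 epithelial and 0 of 3 lymphoid genes had one.

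A promoter is the stretch of DNA before a gene start where transcription factors and RNA polymerase gather, and in active genes it is usually free of nucleosomes and open to Tn5. Snai1 is a zinc finger repressor known from epithelial-mesenchymal transition; it binds the E-box CAGGTG and brings histone deacetylases and the demethylase Lsd1 to its targets. Such binding is known at single promoters and enhancers. In bulk libraries, fewer cells with an open promoter and less opening in each cell cannot be told apart. The values rest on reads, and no library here measured the amount of DNA at a window. Whether openness was the source of a shift in reads was therefore not tested.

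Promoter sequences of members were taken from RefSeq (GRCm38.p6, the coordinates of mm10), as the 250 bases before a gene start. An entry lying inside the window was found for 147 of the 209 members (21, 18, 16 and 92 in the order above). The sequences below show, for each stretch, the called member with an entry that changed most in the stretch's direction, plus members that stayed apart from their stretch or hold an E-box. Genes with predicted or clone names, such as Gm and Rik names, were left out of this choice. Each is written 5′ to 3′ on the strand of its gene, and capitals mark CAGGTG or its reverse complement CACCTG.
Mms22l (chr4:24496201-24496450, plus strand, change 0.72): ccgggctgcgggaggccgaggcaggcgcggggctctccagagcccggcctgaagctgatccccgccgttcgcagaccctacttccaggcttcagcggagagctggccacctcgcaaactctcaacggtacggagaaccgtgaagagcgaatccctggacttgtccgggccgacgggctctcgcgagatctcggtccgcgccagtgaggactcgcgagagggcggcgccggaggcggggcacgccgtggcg
Rngtt (chr4:33310061-33310310, plus strand, change 0.12): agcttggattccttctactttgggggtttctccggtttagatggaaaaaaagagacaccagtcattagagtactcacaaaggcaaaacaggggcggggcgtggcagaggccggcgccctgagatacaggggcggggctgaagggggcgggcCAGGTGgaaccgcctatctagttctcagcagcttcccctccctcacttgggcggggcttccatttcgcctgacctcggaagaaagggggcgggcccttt
Hdhd3 (chr4:62502201-62502450, minus strand, change -0.75): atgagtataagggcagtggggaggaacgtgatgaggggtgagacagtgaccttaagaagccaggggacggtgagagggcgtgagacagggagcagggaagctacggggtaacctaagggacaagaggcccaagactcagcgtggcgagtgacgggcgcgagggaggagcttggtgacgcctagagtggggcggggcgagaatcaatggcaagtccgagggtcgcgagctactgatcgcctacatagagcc
Susd1 (chr4:59438634-59438883, minus strand, change -0.01): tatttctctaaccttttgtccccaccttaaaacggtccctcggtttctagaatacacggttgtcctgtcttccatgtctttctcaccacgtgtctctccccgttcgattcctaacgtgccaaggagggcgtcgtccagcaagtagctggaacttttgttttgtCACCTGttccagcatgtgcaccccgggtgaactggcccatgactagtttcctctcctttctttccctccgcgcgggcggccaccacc
Vsig10 (chr5:117319016-117319265, plus strand, change -0.48): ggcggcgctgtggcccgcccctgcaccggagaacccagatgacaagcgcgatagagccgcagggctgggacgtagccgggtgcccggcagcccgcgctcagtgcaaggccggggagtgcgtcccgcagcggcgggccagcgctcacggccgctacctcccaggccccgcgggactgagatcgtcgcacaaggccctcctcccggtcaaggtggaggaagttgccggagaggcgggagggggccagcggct
Galc (chr12:98259460-98259709, minus strand, change -0.75): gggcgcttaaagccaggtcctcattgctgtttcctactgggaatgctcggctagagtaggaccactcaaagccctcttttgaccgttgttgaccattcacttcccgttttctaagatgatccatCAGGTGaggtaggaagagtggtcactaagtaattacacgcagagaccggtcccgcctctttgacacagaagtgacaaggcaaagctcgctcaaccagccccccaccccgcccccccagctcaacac
Serpina3f (chr12:104214383-104214632, plus strand, change -1.87): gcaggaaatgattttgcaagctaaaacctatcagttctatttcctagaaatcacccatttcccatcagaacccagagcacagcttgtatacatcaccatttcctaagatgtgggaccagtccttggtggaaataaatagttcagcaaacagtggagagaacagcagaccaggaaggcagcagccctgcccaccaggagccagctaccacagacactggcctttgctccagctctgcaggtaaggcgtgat
Crip1 (chr12:113151762-113152011, plus strand, change 1.32): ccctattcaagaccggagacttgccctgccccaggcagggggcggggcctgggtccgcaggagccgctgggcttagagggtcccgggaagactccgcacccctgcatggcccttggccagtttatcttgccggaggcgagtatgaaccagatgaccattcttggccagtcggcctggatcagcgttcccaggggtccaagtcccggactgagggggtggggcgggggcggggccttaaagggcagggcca

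These promoters were mostly rich in G, C and the CpG pair. The median GC content over members with an entry was 64.8%, against 62.0% in the other windows of the 3 chromosomes, and the median ratio of observed to expected CpG was 0.84 against 0.78. Mms22l, whose protein repairs stalled replication forks, had 70.8% GC and a CpG ratio of 1.02. Serpina3f, of a family of serine protease inhibitors, had 48.8% GC and a CpG ratio of 0.068 in the sequence shown. An E-box (CAGGTG on either strand, the 1 motif searched) lay in 13 of the 147 sequences (8.84%). The share was 13.4% in the other windows of these chromosomes, 14.1% in all windows with an entry and 17.2% of all 32851 promoters of the RefSeq table. An entry was found for 1216 of the 1448 other windows but for 21 of 62 in the proximal stretch, so the sets differ in coverage. Of these 13 members, 11 lay on chromosome 12, and their median change was -0.48, against -0.32 for the 81 members of that stretch without one; 10 of the 11 and 61 of the 81 passed the authors' FDR of 0.05. The remaining pair, Rngtt and Susd1, each held an E-box and were among the members that moved least in their stretches. Over all windows with an entry, 339 of 1141 with an E-box and 2088 of 6965 without one were called. Their median changes were 0.06 and 0.09, and those in the other windows of the 3 chromosomes 0.04 and 0.05. A match of letters is not a binding site, and these shares and medians are given without a test.

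The windows were read as the change in log2 concentration, the authors' measure of the reads in a window, from EV to Snai1. Its scaling is not given, so whether it allows for the width of a window (2001 or 1101 bp) is unknown. A window is called higher or lower where the authors' FDR was under 0.05. Among all windows, 29.9% of windows were called, 19.6% higher and 10.3% lower, and over the other windows of chromosomes 4, 5 and 12, 20.6% were called, 12.6% higher and 7.94% lower. In the proximal stretch of chromosome 4, 55 of 62 windows were higher and 0 lower. In the middle stretch of chromosome 4, 18 of 20 were lower and 0 higher. On chromosome 5, 8 of 23 (34.8%) were lower and 0 higher, and on chromosome 12, 77 of 104 were lower and 2 higher. Because the stretches were picked on these changes, nothing is read from these counts.

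As a description of what the choice of stretches fixed, the median change was 0.52 (1.43-fold) in the proximal stretch of chromosome 4, where 61 of 62 windows had a value above 0. It was -0.33 (1.26-fold) in the middle stretch, with all 20 windows below 0, and -0.19 (1.14-fold) on chromosome 5, with 22 of 23 below 0. On chromosome 12 it was -0.33 (1.26-fold), with 97 of 104 below 0. The other windows had a median of 0.04 on chromosome 4, 0.03 on chromosome 5 and 0.12 on chromosome 12. The plot of all windows by group shows these medians beside the spread within each group: the interquartile range was 0.24, 0.32, 0.21 and 0.26 in the stretches and 0.21 in the other windows. The median standard error of a single window, worked back from the authors' p-value and called the implied SE, was 0.09 in the members.

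**Figure D1:**
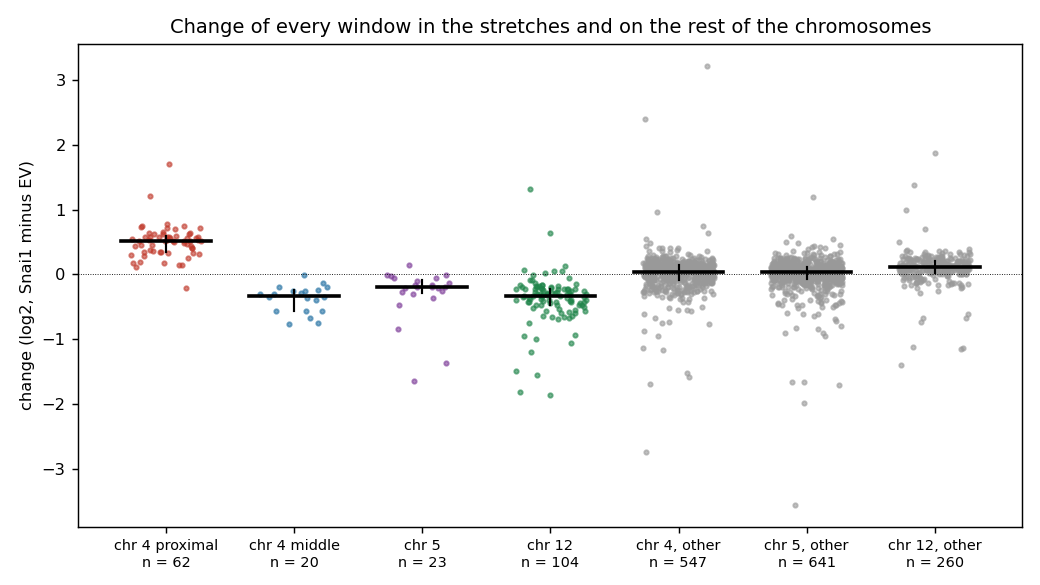
Change in log2 concentration (Snai1 minus EV) of every window in the 4 stretches (coloured) and in the other windows of chromosomes 4, 5 and 12 (grey); each point is a window, the thick bar the median and the thin line the interquartile range. The stretch medians are 0.52, -0.33, -0.19 and -0.33, against 0.04, 0.03 and 0.12 in the other windows.

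In the proximal stretch of chromosome 4, most windows of each list of genes by function were higher, which the choice of the stretch had fixed. The counts by list, here and in the other stretches, are therefore a description and say nothing about these functions. Of 7 genes in the list of the cell cycle, replication and DNA repair, 6 rose. Fsbp (0.15), placed in that list, did not pass, at an FDR of 0.57 by the authors' deposited table. In the authors' deposited table Ccne2, which encodes cyclin E2, a driver of entry into S phase, stood at 11.58 in EV and at 12.33 in Snai1, a change of 0.75 with an implied SE of 0.07 and an FDR of 3.02e-22; its window lies 918 bp from the annotated start. Mms22l (0.72) and Nbn (0.50), whose protein nibrin belongs to a complex that senses DNA breaks, rose as well. Of 9 genes of RNA processing and translation, 8 rose, with Ints8 of the Integrator complex at 0.58, and Rngtt, the mRNA capping enzyme gene, had a value of 0.12. Of 5 genes in the list of kinases and signalling, 3 rose. Lyn, a Src family kinase gene of blood cells, had 0.73, and Pdp1, which reactivates pyruvate dehydrogenase, had 0.75. Trp53inp1, placed in that list, had 0.64. The receptor-signalling kinase genes Map3k7 (0.14) and Ripk2 (0.17) did not pass.

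All 5 ubiquitin and protein turnover genes of this stretch rose, from 0.25 (Ube2j1) to 0.58 (Fbxl4), and so did all 5 genes of membrane traffic and cilia, from 0.19 (Plekhf2) to 0.72 (Tmem67, at a window inside the gene). Of 5 transcription and chromatin genes, 4 rose, with the chromatin remodeller gene Chd7 at 0.63, while Tox stood at 0.49, where the authors' deposited table gives an FDR of 0.227. Of 5 genes of mitochondria and metabolism, 4 rose, among them Coq3 (0.53), which acts in ubiquinone synthesis, and the complex I assembly genes Ndufaf6 (0.58) and Ndufaf4 (0.51). The exception, Decr1, of fatty acid oxidation, was the one window of the stretch below 0, at -0.21, with an FDR of 0.229 in the authors' deposited table. The medians of these lists ran from 0.37 (transcription and chromatin) to 0.64 (kinases and signalling), around the 0.52 of the stretch.

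A pair of neighbours rose well beyond the rest of this stretch. Gem, a small GTPase gene of the family that restrains calcium channels, had 9.12 in EV and 10.82 in Snai1 by the authors' deposited table, a change of 1.70 (3.25-fold) with an implied SE of 0.09 and an FDR of 1.18e-69. Cdh17, a cadherin gene of liver and intestine, is the next window and had 8.09 and 9.30 in the authors' deposited table, a change of 1.21 (2.31-fold) with an implied SE of 0.14. Both windows were among the less open ones in EV, where the stretch had a median of 10.39 (lowest 7.68, highest 12.15). Rbm12b2 came next at 0.78, but its window overlaps that of Tmem67 and the gene has a near-identical copy, so its reads are uncertain. With these, 51 of 62 windows (82.3%) lay within 0.25 of the stretch's median, and 3 (Gem, Cdh17 and Decr1) lay more than 0.5 from it.

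The shift was smaller in the last part of the proximal stretch. Where the next window starts over 2 Mb further on, a stretch was divided into blocks, which uses position alone. The first block (3.6 to 12.2 Mb, 32 windows, Tgs1 to Cibar1) had a median of 0.56, with 30 windows higher. The next 4 blocks, up to Manea at 26.3 Mb, had medians of 0.50, 0.44, 0.56 and 0.57 over 5, 3, 6 and 4 windows. The last block (32.0 to 35.2 Mb, 12 windows, Map3k7 to C9orf72) had a median of 0.32, with 9 windows higher. The 3 last windows inside the stretch lay between 0.18 and 0.37, and the 3 first beyond it, at Aco1, Smim27 and Topors, between -0.18 and -0.04. The last window inside ends at base 35226880 and that at Aco1 starts at base 40142265. No window lies between them, so where the shift ended is not resolved there. At the other end, the stretch began with the first window of the chromosome, and its 3 first windows lay between 0.53 and 0.73.

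**Figure D2:**
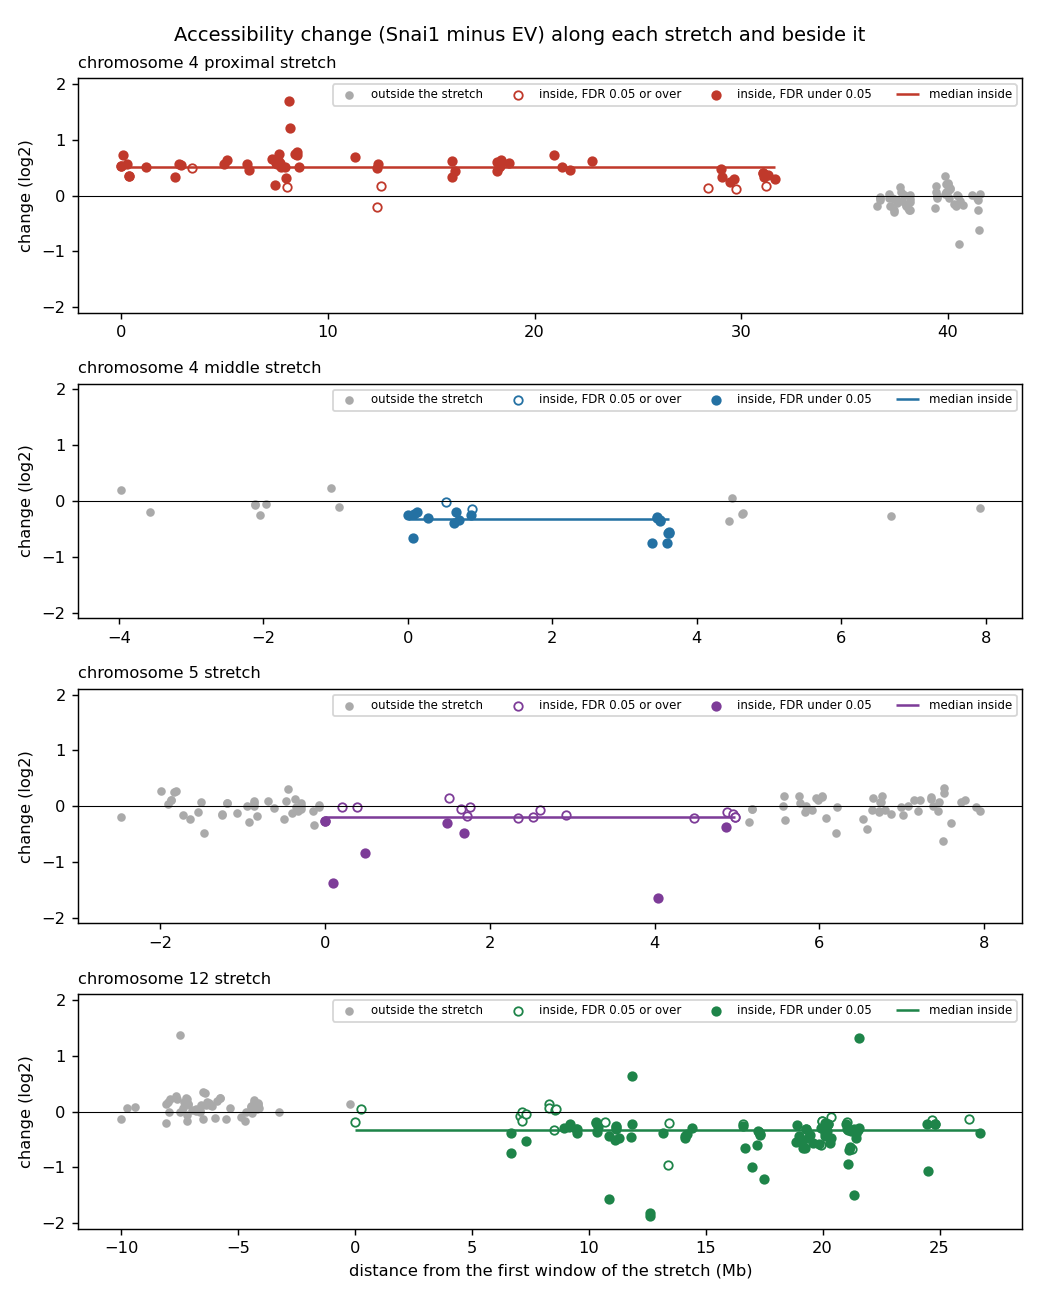
Change in log2 concentration (Snai1 minus EV) of each window against its distance from the first window of the stretch, in Mb; filled coloured points passed the authors' FDR of 0.05, hollow ones did not, grey points lie outside the stretch, and the coloured line is the stretch's median. On proximal chromosome 4 the blocks before the last have medians from 0.44 to 0.57 and the last has 0.32, and on chromosome 12 the windows before Ttc7b are mostly hollow, with a median of -0.07.

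In the middle stretch of chromosome 4, the decrease was larger at its far end. Its first block (58.9 to 59.8 Mb, 11 windows) had a median of -0.25, with 9 lower, and its last (62.3 to 62.5 Mb, 9 windows) a median of -0.56, with all 9 lower. Within the last block, Slc31a1, Fkbp15, Prpf4 and Cdc26 lay between -0.36 and -0.29, near the stretch's median of -0.33. All 3 overlapping pairs of the stretch lie in this block, so its 9 windows are not separate observations. The last block holds Alad, which encodes the second enzyme of heme synthesis, and Pole3, a subunit gene of DNA polymerase epsilon that also works in chromatin remodelling. By the authors' deposited table, Alad had 11.32 in EV and 10.75 in Snai1, a change of -0.57 with an implied SE of 0.09 and an FDR of 5.46e-09. Pole3 had 11.71 and 11.14 there, also a change of -0.57 (implied SE 0.08, FDR 5.54e-11). Their neighbour Hdhd3 had a larger value with a wider error (-0.75, implied SE 0.24, FDR 0.00901 by the authors' deposited table). The lowest value was that of a weakly open window inside Slc31a2, a copper transporter gene: 7.72 in EV and 6.96 in Snai1 by the authors' deposited table, a change of -0.76 (implied SE 0.17).

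By function, all 6 genes of metabolism in the middle stretch fell, from -0.19 (Hsdl2) to -0.76 (Slc31a2). Among them were Ptgr1 (-0.67), of prostaglandin breakdown, Ugcg (-0.31), which makes glucosylceramide, and the copper importer gene Slc31a1 (-0.29). All 3 genes of the cell cycle and replication fell: Pole3, Cdc26 (-0.35) of the anaphase-promoting complex, and Inip (-0.26). The splicing gene Prpf4 (-0.36) and the genes Dnajc25 (-0.24) and Fkbp15 (-0.30) of the turnover list fell too. By the authors' deposited table, Susd1 (-0.01, FDR 0.974) and the sorting nexin gene Snx30 (-0.14, FDR 0.17) were the 2 windows that did not pass. Before the stretch, the windows at Tmem245, Pakap and Txn1 lay between -0.10 and 0.24. Beyond it, those at Orm2 (-0.36) and Gm38592 (-0.24) were also lower and that at Akna (0.05) was not, so the far end is not sharp.

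The chromosome 5 stretch had the smallest median and the smallest share of called windows of the 4, and 3 of its windows lay more than 0.5 from its median. Tbx3, a T-box transcription factor gene, had 10.61 in EV and 8.97 in Snai1 by the authors' deposited table, a change of -1.64 (3.12-fold) with an implied SE of 0.10 and an FDR of 3.18e-54, at a window 699 bp from the annotated start. Bicdl1, an adaptor gene of dynein transport, had 9.85 and 8.48 in the authors' deposited table, a change of -1.37 (implied SE 0.14, FDR 1.34e-21). C330018A13Rik had 10.06 and 9.22 there, a change of -0.84. Without these 3, picked after their values were seen, 5 of 20 windows were lower and 19 of 20 still had values below 0, with a median of -0.18.

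Among the lists, 2 of 3 transcription and chromatin genes of the chromosome 5 stretch fell, Tbx3 and Suds3 (-0.30), a subunit gene of the Sin3 deacetylase complex, while Med13l of the Mediator complex had a value of -0.16. Both genes placed in the traffic list fell, Rab35 (-0.26) and Vsig10 (-0.48), though Vsig10 is not itself known here as a traffic gene. Genes of the other lists had windows that did not pass: Cit (-0.02), which acts in cytokinesis, Rfc5 (-0.01), which loads the replication clamp, Prkab1 (-0.01) of the energy sensor AMPK, Pebp1 (-0.05), Rbm19 (-0.21), and Fbxo21, Fbxw8 and Wsb2 (-0.21 to -0.17). Taok3, at a window inside the gene, was the one member of the stretch above 0 (0.14, FDR 0.224 by the authors' deposited table). The ends of this stretch were not sharp: the 3 windows before it ranged from -0.33 to 0.02 and the 3 after it from -0.28 to -0.04.

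Chromosome 12 was lower over most of its last part, including genes of signalling, transcription and protein turnover. Of 17 genes of kinases, phosphatases and receptor signalling, 12 fell and 5 did not pass, with a median of -0.33, that of the stretch. Jag2, a Notch ligand gene, had 8.71 in EV and 7.22 in Snai1 by the authors' deposited table, a change of -1.49 (2.81-fold) with an implied SE of 0.16 and an FDR of 2.76e-18. Evl, an actin regulator gene placed in that list, had 11.03 and 10.03 in the authors' deposited table, a change of -1.0 (implied SE 0.10, FDR 1.04e-21). Traf3, an adaptor of TNF receptor family signalling, fell by 0.57, and Akt1, the central kinase gene of PI3K signalling, had the value of the median, -0.33 (11.16 in EV and 10.83 in Snai1 by the authors' deposited table, implied SE 0.08). Ptpn21 (-0.01), Mark3 (-0.17), Rin3 (-0.19) and Gpr132 (-0.67, FDR 0.0684 by the authors' deposited table) were among those that did not pass.

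Of 11 genes in the transcription and chromatin list on chromosome 12, 9 fell, and Gtf2a1 (-0.18) did not pass. The 1 that rose was Crip1 (1.32), which was only placed in that list, as was Siva1 (-0.31) among the 9. Zbtb42 (-0.94) and Zfp839 (-0.66), both zinc finger genes, and Yy1 (-0.59), a broadly acting factor gene, fell most among them. Of the partners of histone deacetylases, Rcor1 (-0.42) and Mta1 (-0.33) fell by about as much as the stretch. Of 10 genes of protein turnover, 8 fell. Lgmn, a lysosomal protease gene, had 10.67 in EV and 9.11 in Snai1 by the authors' deposited table, a change of -1.56 (2.95-fold) with an implied SE of 0.22 and an FDR of 4.01e-11, while the chaperone gene Hsp90aa1 (-0.54) and the autophagy gene Atg2b (-0.48) had smaller changes; Sel1l (0.05) and Psmc1 (-0.33, at a window inside the gene) did not pass. Of 8 genes of RNA processing and translation, 7 fell within a narrow range, from -0.20 (Trmt61a) to -0.41 (Papola, the poly(A) polymerase gene, and Wars, a tRNA synthetase gene), with Dicer1, which cuts microRNA precursors, at -0.38; Zc3h14 (-0.17, at a window inside the gene) did not pass.

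Of 13 genes of traffic and cytoskeleton on chromosome 12, 8 fell, among them the dynein heavy chain gene Dync1h1 (-0.43), Golga5 (-0.43) and Pacs2 (-0.40). Syne3, a nuclear envelope gene, had the lowest value of that list, -0.95, but with an implied SE of 0.63 and an FDR of 0.245 in the authors' deposited table it did not pass. Of 8 genes in the list of the cell cycle and DNA repair, 5 fell, with Cinp at -0.32 and the kinase gene Vrk1 at -0.29. Gskip (-0.43), placed in that list, was among the 5. Of 5 genes of metabolism 4 fell, led by Galc (-0.75), a lysosomal enzyme gene of myelin lipid breakdown. Only 3 of 34 listed genes of other lineages had a window in any stretch. Besides Cdh17, these were Vipr2 (10.30 in EV, 9.24 in Snai1, change -1.06), a receptor gene for the peptide VIP, and Begain (10.08 and 8.88, change -1.20), a gene of synapses, and both fell by the authors' deposited table. The chromosome 12 stretch also spans 208 immunoglobulin gene segments of RefSeq, the heavy chain locus of antibodies, and 0 of them had a window. The distance from the window at Tedc1 to the next, at Zfp386, was 2.89 Mb.

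Against the direction of the stretch, 2 windows of chromosome 12 rose. Crip1, a gene of a small LIM domain protein, had 8.61 in EV and 9.93 in Snai1 by the authors' deposited table, a change of 1.32 (2.50-fold) with an implied SE of 0.11 and an FDR of 4.47e-34, and lies among lower neighbours, Mta1 (-0.33) and Tedc1 (-0.29). Ifi27, an interferon-induced gene, had 8.57 and 9.21 in the authors' deposited table, a change of 0.64 (implied SE 0.11, FDR 3.5e-07), and lies between Ddx24 (-0.22) and Serpina3f. The 2 overlapping windows at Serpina3f had the lowest values of any member (-1.87 and -1.82) and the lowest levels in Snai1 (5.20 and 5.23 in the authors' deposited table). Serpina3f belongs to a cluster of close copies, so its reads are uncertain. In all, 11 of the 104 windows lay more than 0.5 from the stretch's median and 77 (74.0%) within 0.25 of it.

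**Figure D3:**
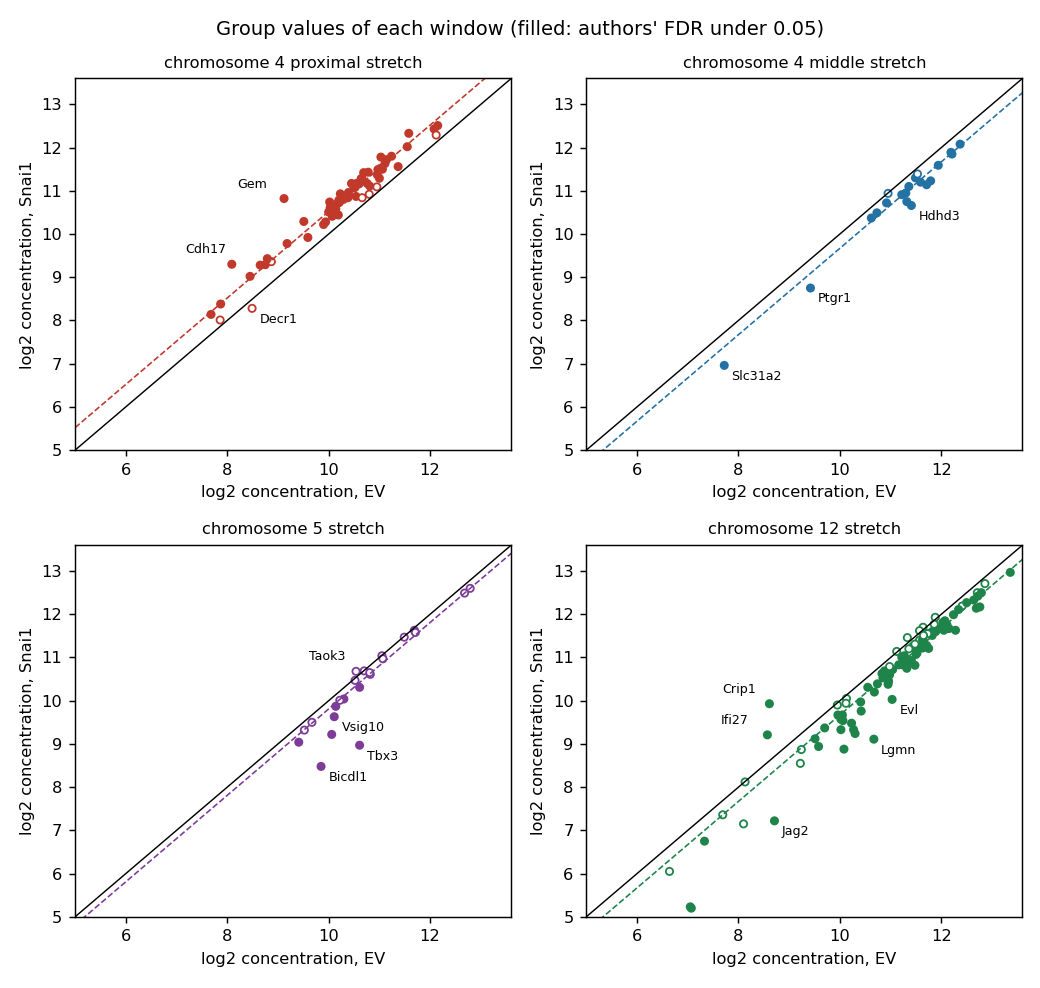
Log2 concentration in Snai1 against that in EV for each member, by stretch; the solid line marks equal values, the dashed line is shifted by the stretch's median change, and filled points passed the authors' FDR of 0.05. Most points follow the dashed line, with Gem and Cdh17 above it on chromosome 4, Tbx3 and Bicdl1 below it on chromosome 5, and Crip1 and Ifi27 above and Jag2 and Lgmn below it on chromosome 12.

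The decrease on chromosome 12 did not begin at the first window of the stretch. The 14 windows before Ttc7b (91.6 to 100.2 Mb) had a median of -0.07, and 3 of them (Galc, Gpr65 and Eml5) were lower. The 90 windows from Ttc7b on (100.5 to 118.3 Mb) had a median of -0.35, with 74 lower and 88 of 90 below 0. This division was made after the values were seen. Just before the stretch, Snw1, Adck1 and Cep128 had values between 0.00 and 0.13, and the stretch ran to the last window of the chromosome. By blocks of position, the median was -0.07 (2 windows), -0.30 (42), -0.40 (52, 108.2 to 113.2 Mb, 43 of them lower) and -0.22 (8).

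Each stretch was also divided into 3 sets of like size by its log2 concentration over both groups. Windows of both widths were ranked together, so sets called less or more open may also differ in width. A window's own change enters this mean, so windows that fell most are moved toward the least open set. The median change on chromosome 12 was -0.52 in the least open set, -0.34 in the middle one and -0.25 in the most open one. On chromosome 5 it was -0.43, -0.21 and -0.12, and 0 of the 8 windows of the most open set were called. In the proximal stretch of chromosome 4 it was 0.51, 0.53 and 0.50, and in the middle stretch -0.25, -0.33 and -0.35. The other windows of the 3 chromosomes had 0.01, 0.06 and 0.06. Ranked by the EV value alone, a division added after the data were seen, the medians from least to most open were -0.45, -0.33 and -0.29 on chromosome 12 and -0.32, -0.16 and -0.12 on chromosome 5. They were 0.53, 0.55 and 0.44 in the proximal stretch and -0.25, -0.31 and -0.36 in the middle one. Ranked by the Snai1 value, the least open set of the middle stretch had -0.57 and its most open set -0.30, so the order in that stretch turned with the ranking. The implied SE was larger in the least open set (0.11 against 0.08 in the most open one on chromosome 12), and its part in these differences was not tested. The plot of median change by accessibility shows the division by both groups.

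**Figure D4:**
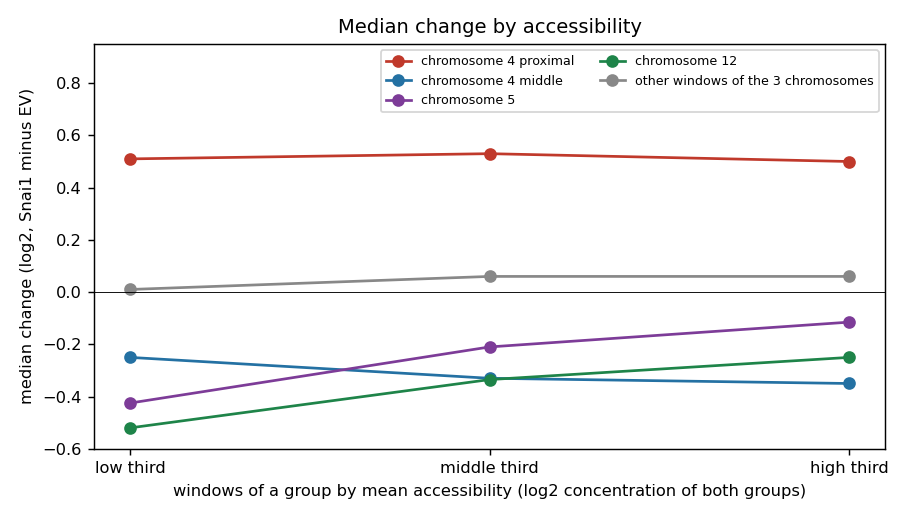
Median change in log2 concentration (Snai1 minus EV) of the least open, middle and most open set of windows, by mean accessibility, for each stretch and for the other windows of the 3 chromosomes. The proximal chromosome 4 medians are 0.51, 0.53 and 0.50, and those of chromosome 12 are -0.52, -0.34 and -0.25.

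Many members share reads. The 209 windows merge into 188 when overlapping ones are joined, mostly where 2 genes start back to back, such as Prpf4 with Cdc26, Rars2 with Orc3 and Zfyve21 with Xrcc3. The 21 overlapping neighbours differed in change by a median of 0.01 (at most 0.07), against 0.18 for 184 neighbours in the stretches that do not overlap. In the other windows of the 3 chromosomes, neighbours that do not overlap differed by a median of 0.14. The genes of such a pair are therefore not separate observations. Both widths of window gave like medians: 0.53 in wide and 0.50 in narrow windows of the proximal stretch, -0.30 and -0.37 in the middle one, -0.19 and -0.20 on chromosome 5, and -0.33 in both on chromosome 12.

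The share of genes with a window varied among the stretches. Of the RefSeq protein-coding genes in the proximal stretch, 60 of 115 (52.2%) had one, in the middle stretch 20 of 51 (39.2%), on chromosome 5 21 of 35 (60.0%) and on chromosome 12 95 of 192 (49.5%). On the rest of the 3 chromosomes, the share was 48.2%. The genes without a window are not described here.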

How the data were processed

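ATAC-seq libraries of HPC7 cells were compared at promoter windows from the authors' deposited table for EV against Snai1. The tools named, per the submitters' processing notes, are DiffBind, Picard, Bowtie2 and fastp, and the build is mm10; the sources used here give no versions, settings or scaling. Per the file headers, the table holds the authors' log2 concentration of each group, their log2 fold (EV minus Snai1), p-value and FDR. It has 0 columns of per-library values, so no test of this work's own was run, and depth per library is unknown. Of 10274 rows, 3 repeats were dropped. The change is the Snai1 value minus the EV value, which equals the deposited fold with its sign turned within 0.01. Windows of 2001 bp belong to gene starts on the plus strand (start plus 1000) and those of 1101 bp to the minus strand (start plus 100). A window took the RefSeq gene (GRCm38.p6) starting at that base (139 members) or within 1000 bp (63), else the gene spanning it (6); 1 had none. The implied SE divides a change of at least 0.1 by the normal deviate that matches its p-value. Role lists used 1 window per gene, the most open. Named were, per stretch, the 3 largest called changes and the 3 farthest from the median the other way, both without genes of predicted or clone names. Also named were the windows at the ends and up to 3 genes per list with the smallest FDR. Other genes were named after their values were seen. The members and lists were chosen with earlier results of these data known. Summaries were tested on simulated data; Python 3.11.15, pandas 2.3.3 and scipy 1.17.1 were used.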

Additional observations from a re-analysis of the deposited data

How the results depend on the processing

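No paired analysis was possible because only group values are in the table, and for the same reason no library could be left out. In 127 of 134 recomputed values the result moved by less than its error (a 95% Wilson interval for a share, which covers counting only, or the median implied SE for a median change). That SE is of a single window, so it is a wide yardstick for a median. With the median of all windows subtracted, the stretch medians became 0.44, -0.41, -0.27 and -0.41, and none was counted as moved. The interval treats windows as independent, though they were selected and some overlap. The count of 127 therefore says little about stability. Every stretch kept the sign of its median, but the choice of the stretches on these same changes had fixed that sign, so nothing is read from it. Over the alternatives the median ran from 0.44 to 0.53 in the proximal stretch of chromosome 4 and from -0.41 to -0.30 in the middle one. It ran from -0.27 to -0.17 on chromosome 5 and from -0.41 to -0.32 on chromosome 12. With an FDR threshold of 0.01, the share of windows called lower was 60.0% (12 of 20) in the middle stretch and 63.5% (66 of 104) on chromosome 12, and 12.2% (177 of 1448) of the windows outside the stretches were called, since fewer windows pass a stricter threshold; on chromosome 5 it was 21.7% (5 of 23). The share of windows on the stretch's side of the median of the other windows became 100% in the proximal stretch with a log2 concentration of at least 9 or with wide windows alone, and 100% on chromosome 5 with narrow windows alone; the cause was not tested. Counting overlapping windows once, an alternative chosen after seeing the data, moved no value beyond its error, nor did 1 window per gene, leaving out the 3 first and 3 last windows, or the window nearest the start for the role lists. Ranking the sets of accessibility by the Snai1 value, also chosen after seeing the data, moved the least open set of the middle stretch from -0.25 to -0.57. Precision was lowest in the least open windows.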
